A study of Mus musculus with 9 samples.

Results

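The esophagus of newborn p63 knockout mice was compared with that of newborn wild type mice on 2-colour arrays. The arrays were chosen by their titles and genotype labels: 3 from p63-/- mice and 4 from wild type mice, 7 of the 9 arrays of the series. The remaining 2 arrays, from p63-/- mice with a Cdx2 transgene, were not compared. They entered the estimate of the spread, the filter on dim probes, the choice of probe and the normalization of single channels between arrays. All 7 mice were taken at birth (postnatal day 0) and were labelled C57BL/6J. The labels do not say which part of Trp63 the knockout allele lacks or in which tissues it was removed. Each sample was total RNA labelled with Cy5, and a common reference RNA from 11 mouse cell lines was labelled with Cy3 on every array. The comparison asks which transcripts of the newborn esophagus differ when p63 is missing.

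Trp63 encodes p63, a transcription factor and relative of p53 that is made in the basal cells of stratified epithelia such as the skin and the esophagus. Basal cells divide on the basement membrane, hold to it through hemidesmosomes and carry keratins 5, 14 and 15. Their daughters move up, exchange these keratins for others, tie themselves together with desmosomes and build a cornified envelope under the plasma membrane. Mice without p63 die at birth and do not form a normal stratified epithelium, and their esophagus keeps a simple lining that includes ciliated cells.

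Of 41174 probes, 30038 to 33249 gave a Cy5 signal well above background on each array, with a median Cy5 signal of 309 to 472 intensity units. The wild type arrays shared 1 slide and the knockout arrays another, so slide cannot be told apart from genotype throughout. One label of wild type replicate 4 names the knockout, whereas its title and genotype name wild type. Its basal and suprabasal genes lay with the other wild type arrays, as the values below show. RNA was taken from esophageal tissue, while the cell type label says epithelium. Keratin signals were high, and so were those of muscle and connective tissue: the summed signal of 31 fibroblast and matrix genes was 1465481 to 1892386 in wild type and 1652663 to 1843028 in the knockout. Some arrays held markers of neighbouring organs that others lacked. The 20 gastric markers summed to 673712 intensity units in wild type replicate 1, against 7344 to 12802 in the other wild type arrays and 17733 to 35411 in the knockout. The 18 adipocyte markers summed to 536897 in knockout replicate 1 and to 131536 to 207441 on the other 6 arrays. The thyroid and parathyroid markers ranged from 7439 to 255246 within wild type alone. Results that could rest on these arrays are given below with and without wild type replicate 1 and knockout replicate 1.

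**Figure D1:**
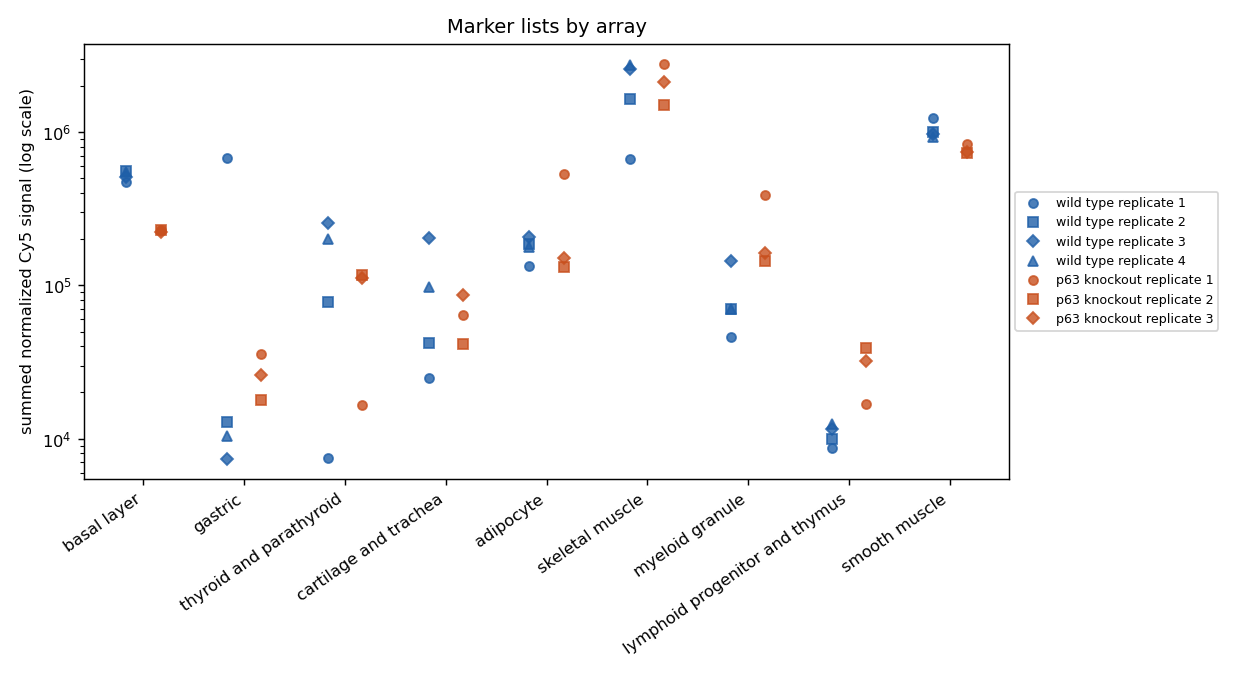
Summed normalized Cy5 signal of the tested genes of 9 marker lists on each array, on a log scale, with wild type in blue and the knockout in orange. The basal layer sums separate the groups (474437 to 560019 against 223363 to 231451), while gastric markers set wild type replicate 1 apart and adipocyte markers set knockout replicate 1 apart. The basal sums rest heavily on Krt15, whose raw Cy5 signal was 221652 to 282142 in wild type and 42348 to 71490 in the knockout. The median of the basal list differed by only -0.16 as a ratio and -0.31 in the sample channel.

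Each gene was read in 2 ways, as the log2 ratio of sample over reference and as the log2 signal of the sample channel alone. As a log ratio, 74 of 22655 genes passed in limma (0.327%), of which 61 fell in the knockout (0.269%) and 13 rose (0.0574%). In the sample channel 393 genes passed (1.73%), 220 lower (0.971%) and 173 higher (0.764%). Both fits called 68 genes in the same direction (0.3%), and of these 59 fell and 9 rose. Over all genes the median difference was 0.02 as a ratio and 0.01 in the sample channel. At an unadjusted p under 0.05 in limma, 762 of the 22655 genes were lower and 1001 higher as ratios. The unadjusted counts of the lists below are read beside these. The reference RNA is the same on all arrays per the labels, yet its channel differed between the groups in 2886 genes (12.7%), lower in 1521 (6.71%) and higher in 1365 (6.03%). The part of the reference difference of the same spot in each sample channel result was not tested. It is given below for some genes only, and sample channel folds are to be read with that limit. Of the 220 sample channel falls, 66 had a reference fall at least 0.5 times as large and 0 had a ratio of the opposite sign. Of the 173 sample channel rises, 122 had a reference rise at least 0.5 times as large, and 48 had a ratio of the opposite sign. Of the ratio calls, 59 of 61 falls and 9 of 13 rises also passed in the sample channel.

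**Figure D2:**
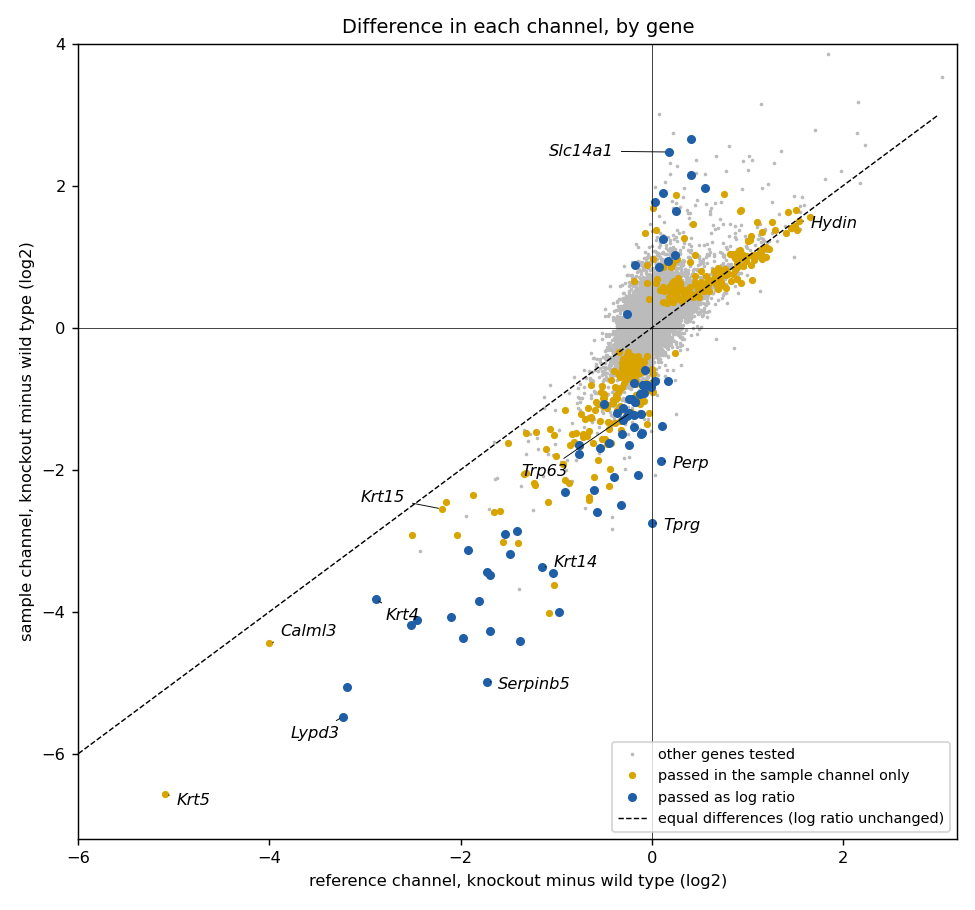
Each point is a gene, placed by its knockout minus wild type difference in the reference channel (x, log2) and in the sample channel (y, log2). Genes that passed as log ratio are blue, genes that passed in the sample channel only are yellow, and points on the dashed line have equal differences in both channels; Calml3 and Krt15 lie near that line, with sample differences of -4.45 and -2.55 beside reference differences of -4.00 and -2.19.

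Trp63, the targeted gene, was read at 3 probes. The most intense of them (mm9, chromosome 16, 25892012 to 25892071, at position 4526 of its transcript) had log2 ratios of 3.53, 3.78, 3.39 and 4.13 in wild type replicates 1 to 4 and of 2.74, 2.73 and 2.73 in knockout replicates 1 to 3. All 3 knockout arrays lay below all 4 wild type arrays. The ratio differed by -0.98 (SE 0.17; limma, adjusted p = 0.0746), which did not pass. The sample signal fell by 1.19 (SE 0.16; limma, adjusted p = 0.0101), from 11.60, 11.85, 12.31 and 12.16 to 10.74, 10.81 and 10.81, a fold of 2.28. The reference signal of this spot was steady at 148.5 to 166.2 raw intensity units over the 7 arrays. The probe was still well above background on all 3 knockout arrays. That call was lost without knockout replicate 2, at -1.20 (limma, adjusted p = 0.0565), and with the mean of the kept probes, at -0.40. A second probe, at position 799 of its transcript (25865388 to 25866165), was dimmer and lay at 0.29, 0.39, 0.16 and 0.73 in wild type and at 0.72, 0.83 and 0.74 in the knockout. The last probe (25884684 to 25884743) did not rise well above background on these 7 arrays. A probe of a transcript without a gene symbol (25867718 to 25867777) lies between the Trp63 probes. It was well above background on all 4 wild type and all 3 knockout arrays. Its ratio differed by 0.07 (SE 0.10; limma, adjusted p = 0.887) and its sample signal by 0.03. Whether it reads Trp63 is not known here. A probe outside the deleted part checks nothing, and the labels do not give that part. The relatives of p63 did not pass: Trp53 differed by -0.15 (SE 0.09) and Trp73 by 0.13 (SE 0.42) as ratios, with overlapping groups.

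Tprg, named for its regulation by p63, fell equally in both readings. Its probe (chromosome 16, 25422306 to 25422365) lies 443 kb below the Trp63 probes. The log2 ratio was 0.78, 1.01, 0.54 and 0.96 in wild type and -2.04, -1.85 and -1.90 in the knockout. It fell by 2.75 (SE 0.14; limma, adjusted p = 0.000243), and the sample signal fell by 2.75 as well, while the reference differed by 0.00. Of the 72 genes and unnamed transcripts tested within 5 Mb of the Trp63 probes, Tprg alone passed as a log ratio. Rtp4, 2252 kb away, rose by 0.93 in the sample channel (SE 0.16; limma, adjusted p = 0.0319) with a ratio difference of 0.77. The nearest genes with a symbol on the other side did not pass, and they are named here with their values already known. P3h2 at 74 kb differed by 0.30, the tight junction gene Cldn1 at 465 kb by 0.29 and Il1rap at 825 kb by -0.16.

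The largest ratio fall was that of Serpinb5, a serpin of epithelial cells also called maspin. Its log2 ratio was 3.12, 3.32, 2.79 and 3.40 in wild type and -0.10, 0.03 and -0.23 in the knockout (fall of 3.26, SE 0.22; limma, adjusted p = 0.000845). The Cy5 signal fell by 4.99, or 31.7-fold, beside a reference difference of -1.73. The desmosomal plaque protein gene Pkp1 stood at 2.25, 2.55, 2.24 and 2.50 in wild type and at -0.90, -0.72 and -0.33 in the knockout. It fell by 3.04 (SE 0.16) as a ratio, and its sample signal fell by 4.41. Cysrt1, a cysteine-rich protein, went from 3.43, 3.74, 2.56 and 3.59 to 0.53, 0.15 and 0.21, a fall of 3.03 (SE 0.36). The groups of these genes lay far apart, with wild type replicate 3 the lowest wild type array for all 3. Among all genes tested, the knockout ratio lay below all wild type ratios in 1037 (4.58%) and above all of them in 1350 (5.96%), and the sample signal lay below in 2048 (9.04%) and above in 2081 (9.19%), so lack of overlap is common in these data.

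The 250 bases before the annotated start are shown for Serpinb5, Cysrt1 and Tprg, the 3 largest ratio falls that passed in both fits and have a promoter in the RefSeq table (GRCm38.p6). They are shown so that the sequence next to the start of the most strongly lowered genes can be read beside their values. Capitals mark TGANTCA, the letters bound by AP-1 proteins with any base in the middle, on either strand.
Serpinb5 (chr1:106860925-106861174, plus strand): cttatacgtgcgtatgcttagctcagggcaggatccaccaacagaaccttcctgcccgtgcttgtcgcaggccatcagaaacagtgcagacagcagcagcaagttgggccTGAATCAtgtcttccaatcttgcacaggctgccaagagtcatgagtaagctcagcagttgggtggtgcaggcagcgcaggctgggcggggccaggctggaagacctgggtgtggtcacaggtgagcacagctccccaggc
Cysrt1 (chr2:25239898-25240147, minus strand): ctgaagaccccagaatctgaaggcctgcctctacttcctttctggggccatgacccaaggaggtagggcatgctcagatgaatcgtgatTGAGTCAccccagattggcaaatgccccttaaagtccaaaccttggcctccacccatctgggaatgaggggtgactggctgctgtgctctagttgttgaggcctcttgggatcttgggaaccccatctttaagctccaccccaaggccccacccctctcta
Tprg (chr16:25286567-25286816, plus strand): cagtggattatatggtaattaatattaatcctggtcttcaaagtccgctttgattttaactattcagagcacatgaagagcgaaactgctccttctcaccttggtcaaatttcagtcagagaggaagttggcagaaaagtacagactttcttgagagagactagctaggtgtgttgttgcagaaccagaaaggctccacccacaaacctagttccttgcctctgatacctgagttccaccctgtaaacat

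Serpinb5 and Cysrt1 each hold 1 match to TGANTCA, at 140 and 161 bases before the start, and Tprg holds none. On both strands, none of these 3 windows matched the p53 family full site of 20 letters. At most 3 mismatches were allowed, and only outside the fixed C and G bases of the site. None of the windows matched GCCNNNGGC, the letters bound by AP-2 proteins. Among the 13655 promoters of genes tested, 5.1% hold TGANTCA, 1.2% hold the full site and 18.5% hold GCCNNNGGC. Of the 59 genes that fell in both fits only 37 have a promoter in the table, so a comparison of motif shares between them and all genes is void.

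Several basal layer genes fell, some of them in the sample channel alone. Of 24 genes of the basal layer list, 5 fell as a ratio and 0 rose, with a median of -0.16. In the sample channel 9 of them fell and 0 rose, and the median was -0.31. Krt14, which pairs with Krt5 in basal cells, had ratios of 1.02, 1.11, 1.08 and 1.31 in wild type and -0.99, -1.12 and -1.16 in the knockout, and fell by 2.22 (SE 0.10; limma, adjusted p = 0.000241). Krt5 itself had sample signals of 15.03, 15.10, 15.31 and 15.44 in wild type and 7.92, 9.37 and 8.65 in the knockout. This fall of 6.57 (SE 0.92; limma, adjusted p = 0.0115), a fold of 95.1, was the largest fitted fall in the sample channel among the genes named here. The Krt5 ratio did not pass at -1.48 (SE 0.47; limma, adjusted p = 0.436), beside a reference difference of -5.09. The 2 Cdx2 arrays, which enter the error of the fit, had Krt5 ratios of -0.08 and 2.15. In raw intensity units over local background, the Krt5 spot read 37692 to 55325 in Cy5 and 4300.2 to 5690 in Cy3 in wild type, and 238 to 918 in Cy5 and 66.9 to 111.5 in Cy3 in the knockout. The same RNA thus gave a Cy3 signal on wild type spots far above that on knockout spots. What moved the reference of such spots was not tested. Without knockout replicate 1 or knockout replicate 3 the Krt5 sample difference was -6.21 or -6.57 and no longer passed (limma, adjusted p = 0.0573 in both). With only the 7 arrays compared, it was -6.57 (limma, adjusted p = 0.000134).

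Krt15, another basal keratin, was among the brightest genes on the array in both groups. Its sample signal was 17.51, 17.81, 17.85 and 17.87 in wild type and 14.95, 15.12 and 15.55 in the knockout, a fall of 2.55 (SE 0.15; limma, adjusted p = 0.000156). Its ratio differed by only -0.36 (SE 0.10) and did not pass, beside a reference difference of -2.19. All 3 knockout arrays lay below all 4 wild type arrays for Krt15 in both readings. Krt17, a keratin of basal and stressed epithelium, fell by 1.66 as a ratio, and its sample signal fell by 4.18. Perp, a desmosome protein and known target of p63 and p53, fell by 1.97 (SE 0.24) as a ratio and by 1.88 in the sample channel, with the reference at 0.09. Col17a1, the collagen of hemidesmosomes, fell by 1.38 and 2.91, and the ligand Wnt10a by 1.39 and 1.50. The integrin subunit Itgb4 fell in the sample channel alone, by 1.67. In bulk tissue, fewer basal cells and less RNA per cell cannot be told apart.

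**Figure D3:**
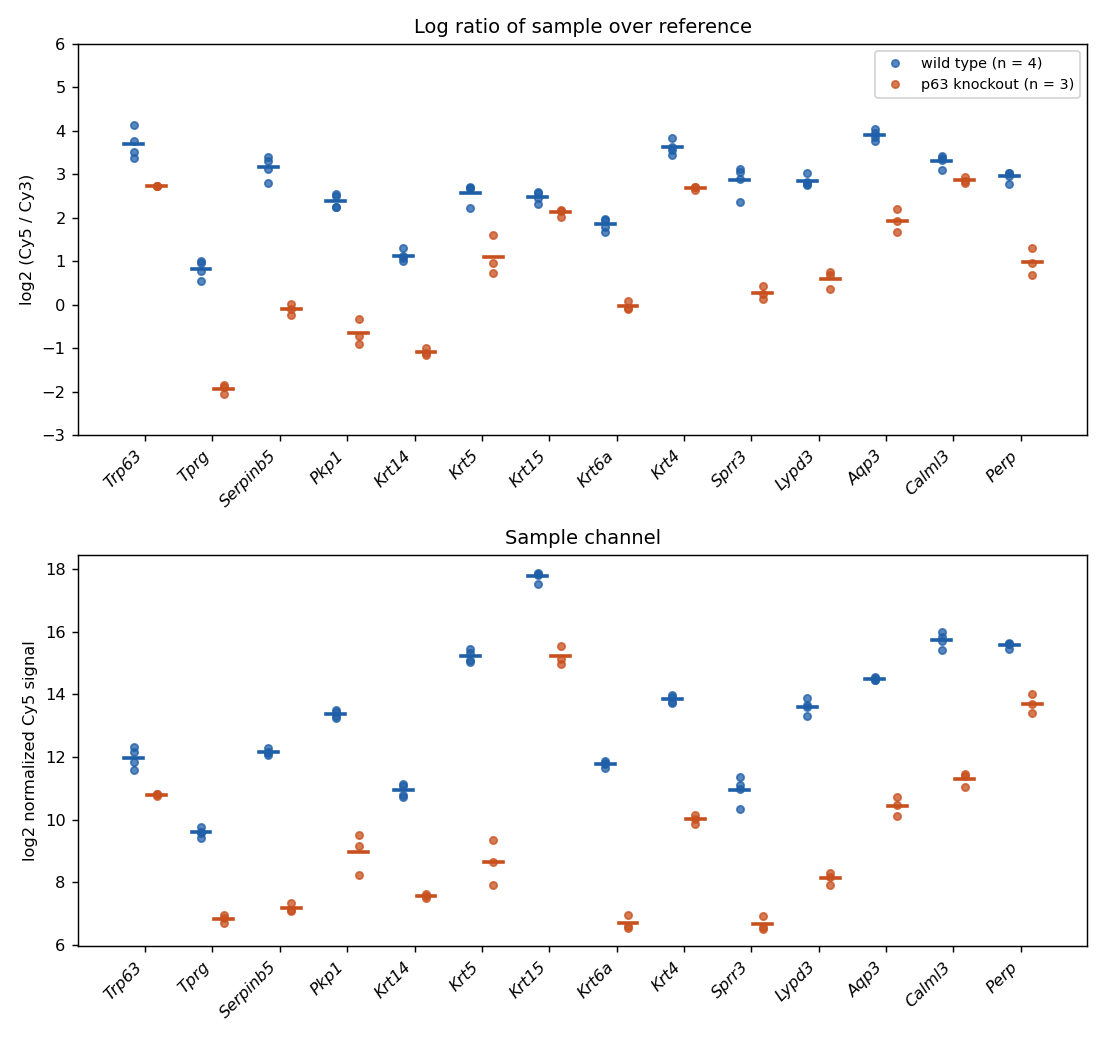
Log2 ratio (upper) and log2 normalized Cy5 signal (lower) of 14 genes on each array, with wild type in blue, the knockout in orange and bars at the means. Trp63 stayed high in both groups, Tprg, Serpinb5, Pkp1 and Krt14 separated in both readings, and Krt5, Krt15 and Calml3 separated mainly in the sample channel.

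Suprabasal keratin and cornified envelope genes made up a long list with many calls. Of 44 tested, 14 fell as a ratio, 0 rose and 30 did not pass, with a median of -0.67. In the sample channel 21 fell and 0 rose, with a median of -1.13. Krt6a, a keratin of suprabasal and stressed cells, had sample signals of 11.65, 11.87, 11.77 and 11.80 in wild type and 6.60, 6.56 and 6.97 in the knockout, a fold of 33.4. As a ratio it fell by 1.88 (SE 0.10; limma, adjusted p = 0.000243), beside a reference difference of -3.19. Its neighbour Krt6b fell by 2.40 (SE 0.15) as a ratio, and its sample signal fell by 4.37. These genes are near-identical copies, so their probes may share signal. Sprr3, a small proline-rich precursor of the envelope, stood at 3.12, 3.06, 2.38 and 2.90 in wild type and at 0.13, 0.25 and 0.44 in the knockout, a fall of 2.59 (SE 0.18). Krt4, the main suprabasal keratin of the esophagus, had a small ratio fall of 0.94 (SE 0.10; limma, adjusted p = 0.00804). Its sample channel fall was 3.82, beside a reference difference of -2.89.

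Other members of the list that fell did so to different extents, and 7 of the 44 had a ratio difference above 0. Scel, the gene of sciellin, fell by 2.17 as a ratio, Sprr1a by 1.93, Cnfn, the gene of cornifelin, by 1.71, Sbsn by 1.69, the annexin Anxa1 by 1.49, the transglutaminase Tgm3 by 1.45 and the keratin Krt78 by 1.21. Anxa1 remained bright in the knockout, with sample signals of 14.83, 14.65 and 15.23 against 16.22 to 16.38 in wild type. The envelope proteins Evpl and Ppl, which partner each other, were read unequally. Ppl fell by 1.02 as a ratio and Evpl differed by -0.40. In the sample channel Ppl and Evpl fell by 1.78 and 2.91, beside reference differences of -0.76 and -2.51. Ly6d, a surface protein of squamous cells, had the ratio difference of -2.95 with the widest error of the group (SE 0.48; limma, adjusted p = 0.0669) and fell by 4.02 in the sample channel. Calml3, a calmodulin-like protein of epithelia, fell by 4.45 in the sample channel (SE 0.54; limma, adjusted p = 0.0058). Its ratio stood at 3.09, 3.42, 3.39 and 3.34 in wild type and at 2.95, 2.80 and 2.85 in the knockout, beside a reference difference of -4.00.

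Desmosomes are the junctions that tie together the keratin filaments of neighbouring cells. Of 13 tested desmosome genes 4 fell as a ratio and 0 rose, with a median of -0.40, and 8 fell in the sample channel, with a median of -1.50. The 4 were Perp, Ppl and the plaque proteins Pkp1 and Pkp3, of which Pkp3 fell by 0.89. The desmosomal cadherin Dsc2 fell in the sample channel by 2.46 and desmoplakin, Dsp, by 1.50. Dsg3, the desmoglein of basal cells, was not well above background on any knockout array. Its fitted sample signal was 1.76-fold lower there, beside a reference difference of -0.52. Its ratio differed by -0.30 (SE 0.11) and did not pass, with overlapping groups. A bound on the fold set each dim array at its own signal or at the dimmest signal still well above background, whichever was higher. That bound equalled the fitted fold, so the fold is not a strict minimum. The summed desmosome signal was 133015 to 144622 in wild type and 32440 to 48971 in the knockout. Of 16 hemidesmosome and basement membrane genes, Col7a1, the anchoring fibril collagen, and Col17a1 fell as ratios, by 1.71 and 1.38, and 0 rose. Their median was -0.04, close to that of all genes. None of 22 claudin and tight junction genes passed as a ratio in limma, where only 0.327% of all genes did. At an unadjusted p under 0.05, 3 of the 22 were lower and 1 higher, against 762 and 1001 of all 22655 genes. Cldn23 and Cldn4 fell in the sample channel, by 1.65 and 0.83, beside reference differences of -0.85 and -0.31. None of 20 adherens junction and epithelial identity genes passed as a ratio, with 2 lower at an unadjusted p under 0.05, and Spint2 alone rose in the sample channel, by 1.09 beside a reference difference of 0.92.

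**Figure D4:**
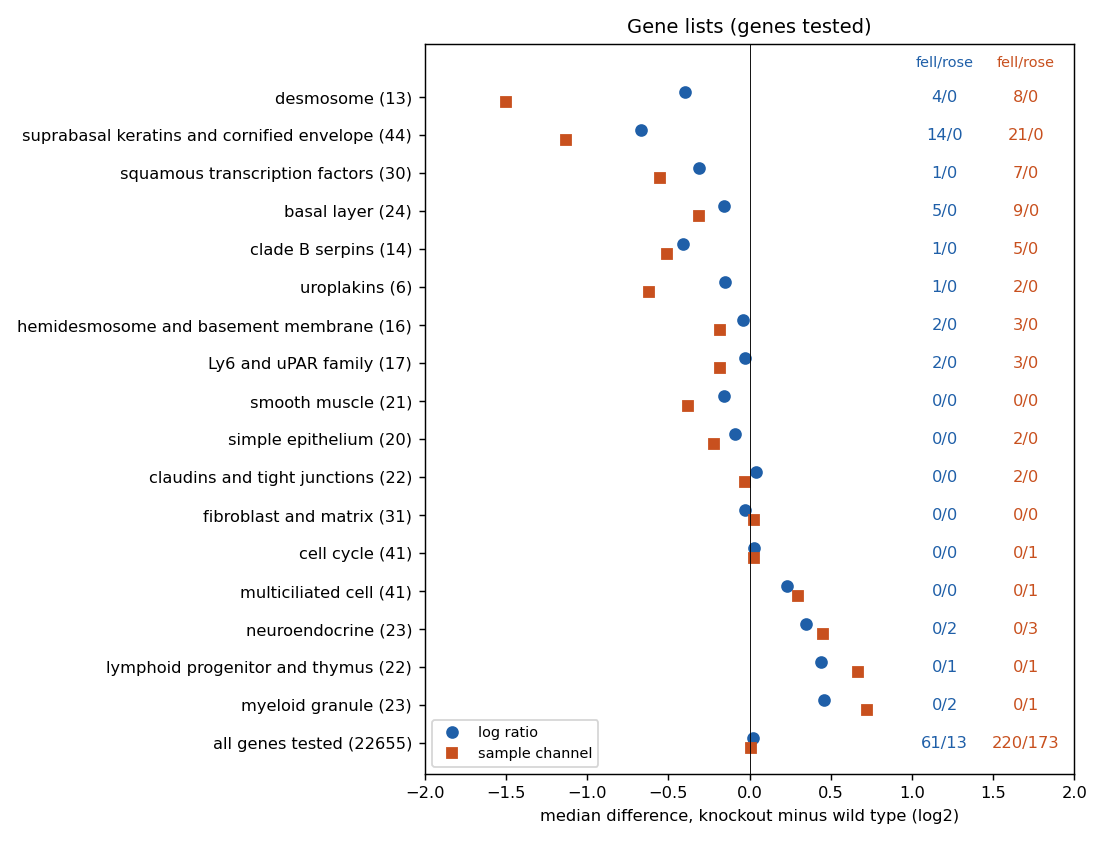
Median knockout minus wild type difference (log2) of 17 gene lists and of all genes, as log ratio (circles) and in the sample channel (squares), with the number of genes tested in brackets and the numbers that fell and rose at the right. Desmosome and suprabasal lists have the lowest medians (-1.50 and -1.13 in the sample channel), and myeloid granule and lymphoid lists the highest (0.72 and 0.67).

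Of 30 squamous transcription factors 7 fell in the sample channel, 0 rose and 23 did not pass (median -0.55). As a ratio only Klf5, a factor of proliferating epithelium, passed, with a fall of 0.59 (SE 0.08; limma, adjusted p = 0.0305), and the median was -0.31. Among the 7 were Trp63, Klf5, Pitx1, Zfp750, Pax9 and Tfap2c. Zfp750, which acts below p63 in epidermal differentiation, had sample signals of 10.80, 11.04, 10.65 and 10.99 in wild type and 8.55, 8.37 and 8.53 in the knockout, a fall of 2.39. Its ratio difference of -1.73 did not pass (SE 0.37; limma, adjusted p = 0.184), with wild type replicate 3 at 2.36 below the other wild type arrays at 3.55 to 3.86. Pax9, a factor of the esophageal lining, fell by 1.62 in the sample channel. Pitx1 fell by 2.45 with a ratio difference of -0.30 and a reference difference of -2.15.

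A few members of the Ly6 and uPAR family, of the clade B serpins and of the uroplakins fell, and most did not pass. Lypd3, a glycoprotein of the Ly6 and uPAR family, had sample signals of 13.59, 13.89, 13.66 and 13.30 in wild type and 8.30, 8.17 and 7.91 in the knockout, a fold of 44.7. As a ratio it fell by 2.25 (SE 0.13; limma, adjusted p = 0.000416), beside a reference difference of -3.23. With Psca, which fell by 1.66 as a ratio and whose sample signal fell by 4.12, it made up the 2 of 17 family members that fell as a ratio, and 0 rose. Psca is also a member of the gastric list, whose summed signal was higher in the knockout than in 3 of 4 wild type arrays. Of 14 clade B serpins, Serpinb5 alone passed as a ratio, and Serpinb3b, Serpinb10, Serpinb3c and Serpinb3a fell beside it in the sample channel. By the fitted sample signal Serpinb3b was 4.67-fold lower and Serpinb3a 1.50-fold lower, beside reference differences of -0.45 and -0.18. Neither was well above background on any knockout array. The Serpinb3 genes are close copies that may share signal. Upk1b, a uroplakin of urothelium and other linings, fell by 2.03 as a ratio and by 2.60 in the sample channel.

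Other large falls belong to different processes. Aqp3, the water and glycerol channel of stratified epithelium, stood at 3.76, 3.86, 3.95 and 4.04 in wild type and at 1.92, 1.67 and 2.20 in the knockout, and fell by 1.97 (SE 0.20; limma, adjusted p = 0.00795). The Cy5 signal of Aqp3 fell by 4.07, beside a reference difference of -2.10. Trim29, a tripartite motif protein of basal cells, fell by 2.05 (SE 0.11) as a ratio, and its sample signal fell by 3.85. Duoxa1, the maturation factor of the oxidase Duox1, fell by 1.78 and 3.48. Dapl1 fell by 1.71 and 3.19. The beta-defensin Defb14 was 12.3-fold lower by its fitted sample signal, beside a reference difference of -1.02. It was not well above background on any knockout array, and its ratio did not pass (-2.60, SE 0.55). Alox15, a lipoxygenase, fell by 2.19 in the sample channel, beside a reference difference of -1.24. Of 19 epidermal lipid and barrier genes it was joined only by Cyp4f39, at a fall of 0.69. The retinoic acid producing enzymes Aldh1a2 and Aldh1a3 fell by 1.12 and 1.07 in the sample channel, 2 of 20 in their list. Their reference differences were -0.67 and -0.57, and neither passed as a ratio. The protease Tmprss13 fell by 1.27, the only call among 17 kallikreins, cathepsins and their inhibitors.

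Few signalling genes passed. The Wnt ligands Wnt10a and Wnt4 fell in both readings and were the only calls among 32 Wnt pathway genes. Wnt4 stood at 0.96, 1.10, 1.06 and 1.23 in wild type and at 0.12, -0.33 and -0.17 in the knockout, a fall of 1.21 (SE 0.14; limma, adjusted p = 0.0105). In the EGF family the receptor regulator Lrig3 fell by 0.52 as a ratio, and the ligand Hbegf by 0.56 in the sample channel alone, 2 of 17. The antagonist Spry2 fell by 0.50 in the sample channel, the only call among 18 FGF family genes. The interleukin antagonist Il1rn fell by 0.87 (SE 0.13; limma, adjusted p = 0.0498) and the chemokine Ccl20 by 1.20 in the sample channel, 2 of 23 cytokine and interferon genes. Among 28 p53 targets and senescence genes, Perp fell in both fits and Sesn2 fell by 0.57 in the sample channel. In limma no gene passed in either fit among 19 Notch, 16 Hedgehog and 26 BMP and TGF-beta pathway genes. At an unadjusted p under 0.05 the ratio counts there were 1 lower and 2 higher, 1 lower and 0 higher, and 2 lower and 1 higher. Fosl2, an AP-1 subunit, fell by 0.77 in the sample channel, the only call among 24 immediate early and heat shock genes.

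As ratios, rises were fewer than falls. Slc14a1, a urea transporter, rose most among genes with a symbol: its ratio went from -1.58, -1.92, -1.14 and -1.70 to 0.90, 0.72 and 0.52 (rise of 2.30, SE 0.19; limma, adjusted p = 0.00267) and its sample signal rose by 2.48, a fold of 5.57. The reference differed by 0.18. Ascl3 encodes a transcription factor known from ionocytes, the ion-transporting cells of airway linings, and Kcnj1 a potassium channel known from the kidney. Kcnj1 ratios were 0.17, 0.09, 0.03 and 0.18 in wild type and 1.26, 1.07 and 1.43 in the knockout, a rise of 1.14 (SE 0.11; limma, adjusted p = 0.00622), and its probe was well above background on 1 of 4 wild type arrays and all 3 knockout arrays. Ascl3 ratios were 0.01, 0.00, -0.01 and 0.05 against 0.67, 0.81 and 0.86, a rise of 0.77 (SE 0.10). With Slc14a1 these made 3 rises among 23 genes of water, urea and ion transport, where Aqp3 fell. In the 9 fits that left out 1 array, the ratio calls of Slc14a1 and Kcnj1 held in all 9 and that of Ascl3 in 3.

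In the neuroendocrine list 2 of 23 genes rose as a ratio and 0 fell, with a median of 0.35, and 3 rose in the sample channel, with a median of 0.45. Calcb, a neuropeptide of the calcitonin family, stood at 0.68, 0.31, 0.02 and 0.15 in wild type and at 1.62, 1.60 and 1.79 in the knockout, a rise of 1.38 (SE 0.17; limma, adjusted p = 0.0174). Gad1, which makes the transmitter GABA, rose by 0.78 (SE 0.11), and the prohormone convertase Pcsk1 rose by 1.33 in the sample channel, with a ratio difference of 1.40 (SE 0.24; limma, adjusted p = 0.073). The summed signal of the list overlapped between groups, at 47440 to 74616 in wild type and 54580 to 72948 in the knockout. Calcb no longer passed as a ratio when wild type replicate 2 or 4 or any 1 of the knockout arrays was left out, with values from 1.32 to 1.42.

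Few genes of blood cells passed. Of all 22655 genes tested 12743 had a ratio difference above 0, and 1001 were higher at an unadjusted p under 0.05 in limma. The counts of blood cell lists are read against these. Of 23 myeloid granule genes 2 rose as a ratio and 0 fell, with a median of 0.46, and 12 were higher at an unadjusted p under 0.05. Ctsg, the granule protease cathepsin G, went from 1.47, 1.80, 2.08 and 2.06 to 3.89, 3.41 and 3.48, a rise of 1.74 (SE 0.17; limma, adjusted p = 0.0076). Ms4a3, a membrane protein of granulocyte precursors, rose by 1.77 (SE 0.21; limma, adjusted p = 0.0137). Neither passed in the sample channel (limma, adjusted p = 0.0618 and 0.0665), where wild type replicate 3 was nearest to the knockout, at 10.40 for Ctsg against 8.30 to 9.01 on the other wild type arrays. The summed granule signal was 45825 to 145040 in wild type and 144735 to 389353 in the knockout, highest in knockout replicate 1, the array with the high adipocyte signal. Prtn3 rose by 0.57 in the sample channel. Of 22 lymphoid progenitor and thymus genes all 22 had a ratio difference above 0 (median 0.44). At an unadjusted p under 0.05 in limma, 7 were higher and 0 lower as ratios, and 2 were higher in the sample channel. Igll1, the surrogate light chain of pre-B cells, alone passed, at 0.79 (SE 0.10; limma, adjusted p = 0.0237). The summed signal of that list was 8734 to 12547 in wild type and 16764 to 38755 in the knockout, highest in replicate 2. The platelet receptor Clec1b rose by 1.06 (SE 0.16; limma, adjusted p = 0.0471). Without wild type replicate 1 and knockout replicate 1 the myeloid median was 0.30 with 1 rise, and Igll1 and Clec1b no longer passed as ratios. The part of blood content in these rises was not tested.

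**Figure D5:**
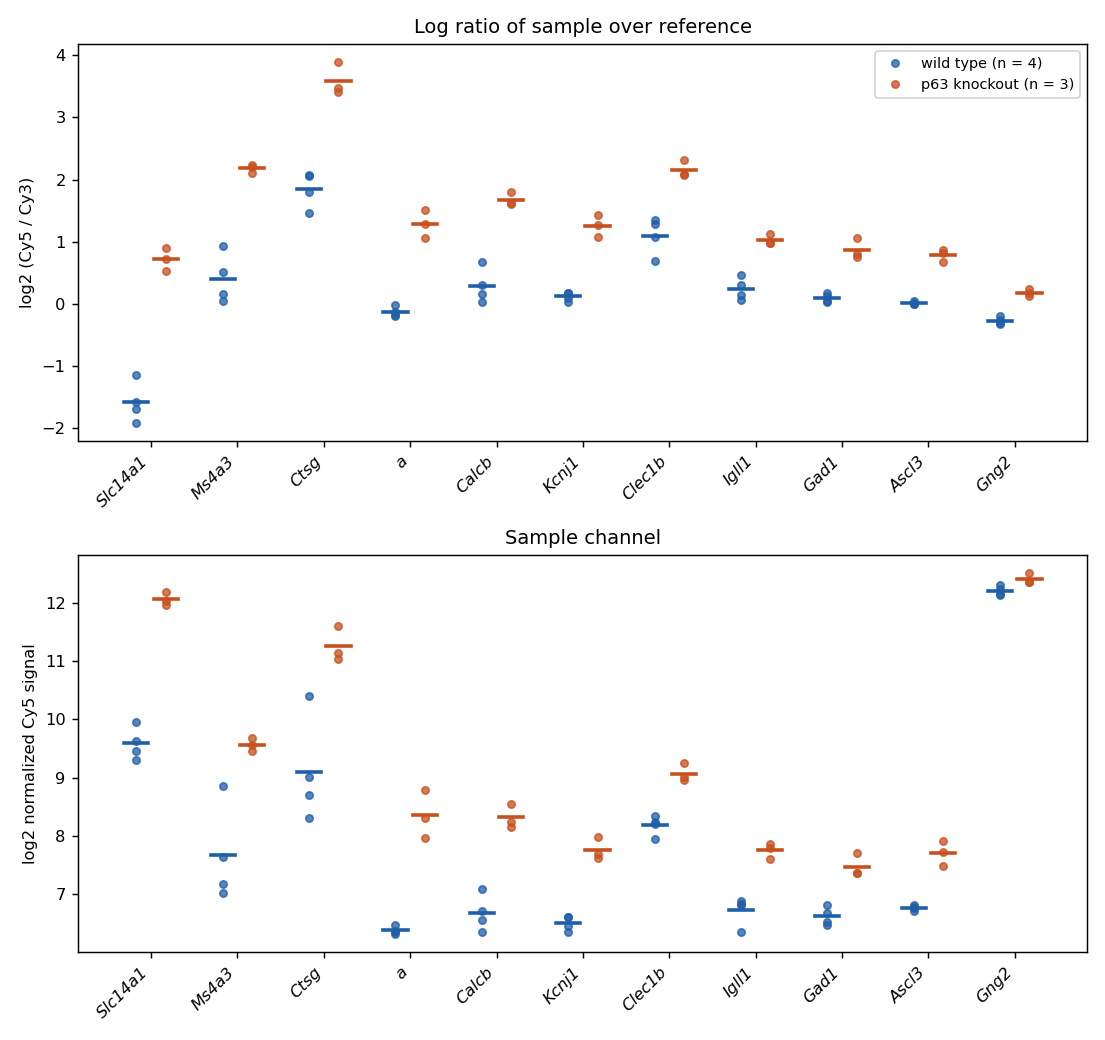
Log2 ratio (upper) and log2 normalized Cy5 signal (lower) of the 11 genes with a symbol that rose as a log ratio, by array, with wild type in blue, the knockout in orange and bars at the means. All 11, including nonagouti (a), lie above wild type on every knockout array in both readings, though Gng2 differs by only 0.20 in the sample channel. Of all genes tested, 5.96% do so as a ratio and 9.19% in the sample channel.

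The gene a, nonagouti, which encodes a signal that switches pigment type, rose by 1.42 (SE 0.12; limma, adjusted p = 0.00365). Its ratio was -0.13, -0.17, -0.02 and -0.20 in wild type and 1.29, 1.05 and 1.51 in the knockout. Its alleles differ between mouse strains, and the labels give 1 strain for all arrays. Another strain marker, Nnt, did not pass, with ratios of 0.01, 0.05, 0.07 and -0.64 in wild type and -0.67, -0.49 and -0.58 in the knockout, so wild type replicate 4 lay with the knockout. Gng2, a G protein subunit, rose by 0.45 as a ratio with a sample difference of 0.20 (limma, adjusted p = 0.273). Of the 13 ratio rises 2 had only a transcript identifier and are not described.

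The largest sample channel rises included genes whose reference rose as much. Hydin, a gene of the ciliary central pair, had sample signals of 10.51, 10.41, 9.92 and 10.32 in wild type and 11.71, 11.90 and 11.79 in the knockout, a rise of 1.51 (SE 0.15; limma, adjusted p = 0.00191). Its ratio differed by -0.04 and the reference rose by 1.55: raw Cy3 was 964 to 1516 intensity units in wild type and 3567 to 3696 in the knockout. Arhgap19, Tnfsf12 and Cdk2 behaved likewise, with sample rises of 1.64, 1.38 and 0.83 beside ratio differences of 0.21, 0.09 and 0.06. Hoxc5, fitted with 1 wild type value missing, rose by 1.36 beside a ratio difference of 0.20. For such genes the sample channel rise cannot be told apart from a difference between the slides. The same limit applies to falls with a similar reference fall, such as those of Calml3, Krt15, Evpl and Pitx1. Within the wild type slide, too, the reference of a spot could differ along with its sample signal. For the skeletal muscle gene Mylpf, raw Cy5 ran from 45003 to 282408 over wild type replicates 1 to 4, and raw Cy3 from 5029 to 26093. What moved the reference was not tested. Other sample channel rises had a steadier reference, such as Wfdc17, a small secreted protein of macrophages, at 1.69 with a reference difference of 0.02, and Prok2, a secreted peptide, at 1.38 with 0.04. Their ratio differences of 1.68 and 1.34 did not pass (limma, adjusted p = 0.0669 and 0.0746). Hamp, the iron hormone hepcidin, rose by 1.88 in the sample channel beside a reference difference of 0.76.

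Lists of ciliated, secretory, intestinal, columnar and simple epithelium held no ratio call, where only 0.327% of all genes passed as a ratio. Of 41 multiciliated cell genes, 35 were higher in the knockout as a ratio with a median of 0.23, none passed in limma, and 2 were higher at an unadjusted p under 0.05. The list's summed signal was 172280 to 321355 in wild type and 249865 to 389146 in the knockout, so the groups overlapped. Hydin alone passed in the sample channel. The median of this list ran from -0.10 with scaling of log ratios between arrays to 0.35 over the alternatives. None of 25 secretory and mucous genes (median 0.06), 29 intestinal genes (median -0.02) and 24 columnar and foregut transcription factors (median 0.09) passed in either fit, with 2, 1 and 1 higher and 0, 2 and 0 lower as ratios at an unadjusted p under 0.05. Of 20 simple epithelium genes none passed as a ratio, with 5 lower and 1 higher at an unadjusted p under 0.05. Krt7 and Cldn4 fell in the sample channel, by 1.16 and 0.83, beside reference differences of -0.91 and -0.31. Psca was the only gastric gene that passed in either fit. Among 21 smooth muscle genes none passed, the median was -0.16 as a ratio and -0.38 in the sample channel, and 6 were lower as ratios at an unadjusted p under 0.05. The summed smooth muscle signal was 923644 to 1239244 in wild type and 735508 to 839914 in the knockout. No gene passed in either fit among 31 skeletal muscle genes (0 at an unadjusted p under 0.05 as ratios), 31 fibroblast genes (1 lower), 19 endothelial genes (0), 22 enteric neuron and glia genes (2 higher) or 25 erythroid and platelet genes (1 lower and 1 higher). Of 41 cell cycle genes none passed as a ratio and 0 had an unadjusted p under 0.05, with a median of 0.03, and the 18 housekeeping genes had a median of 0.02 with 0 passing.

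Leaving out wild type replicate 1 and knockout replicate 1 together, chosen after the data were seen, left 18 genes as ratios (16 lower) and 181 in the sample channel (119 lower). Of these, 16 and 157 were among the genes called on all arrays, each in the same direction. In that fit 16 of 44 suprabasal, 6 of 24 basal layer and 6 of 13 desmosome genes still fell in the sample channel, against 3, 3 and 1 as ratios. The list medians were -0.52, -0.16 and -0.44 as ratios, near those over all arrays.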

How the data were processed

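Per the file headers, the deposited files hold for each spot the mean intensity and the local background intensity of Cy5 and Cy3, and per the labels Cy5 is the sample and Cy3 the reference on every array, with no dye swap. The submitters' processing notes name Agilent Feature Extraction 9.1. The authors' deposited value table holds log2 ratios, and the files also hold a log10 ratio written by the scanner software per the file headers. Both were alternatives only. How the authors centred the table is not given in the sources used here. Here, normexp background correction (offset 50), loess within arrays, and Aquantile for single channels were applied. Control and outlier spots were left out. A gene was read from its brightest probe among 33761 well above background on at least 2 of 9 arrays. RefSeq (GRCm38.p6) gave names, and probe coordinates are mm9. limma 3.58.1 (R 4.3.3) fitted 9 arrays with 3 genotypes, with Benjamini-Hochberg adjustment at 0.05. In simulated data 67.2%, 94% and 97% of genes changed by 1, 2 and 3 (log2) were called as ratios, and 77.6%, 86.6% and 95.5% in the sample channel. The simulation drew independent normal noise with the fitted spread of each gene. It held no slide difference, distant array, background floor or moving reference, so these shares may be too high for the arrays themselves. The number of arrays limits the precision. Nothing says that replicates were separate litters, so p-values measure the spread between these samples.

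The named genes are Trp63, Trp53, Trp73 and Tprg, the 25 largest ratio falls and all ratio rises, the 20 largest falls and rises in the sample channel, up to 8 passing members of each of 50 gene lists or else the one with the lowest p, and passing genes near Trp63. Members and lists were chosen with earlier results of these data known. A few genes that meet the rule are not reported here.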

Additional observations from a re-analysis of the deposited data

Results flagged for a closer look

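In 4 measures 1 wild type array lay apart from the other 3 by Dixon's criterion for 4 arrays. Such a gap is found by chance in about 1 of 20 groups, and 48 genes and 19 marker lists were examined. The log2 ratio of Tgm3 was 0.86 in wild type replicate 3, against 1.65 to 1.77 in the others. Col7a1 stood at 1.26 in wild type replicate 1, against 1.63 to 1.65. Both values lay above the knockout ratios of the same gene. The gastric markers summed to 673712 intensity units in wild type replicate 1, against 7344 to 12802, and the enteric neuron and glia markers to 78905 in wild type replicate 3, against 68801 to 69378. The knockout group, with 3 arrays, was not examined in this way.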

How the results depend on the processing

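The count of 74 ratio calls was 183 without background correction, 133 with the scanner software's processed signals, 133 with the authors' table, 115 with only the 7 arrays compared, 18 without both arrays that stand apart and 9 with the replicate block. Leaving out 1 array gave 21 (knockout replicate 2) to 121 (wild type replicate 3), and moved the count by over 1.5 times for every array except wild type replicate 1. Both arrays that stand apart were picked by their marker sums. By all ratios wild type replicate 3 was the most distant, at -50.85 on the first principal component against -3.07 to 20.95 elsewhere. Its ratios correlated with those of wild type replicates 1, 2 and 4 at 0.879, 0.904 and 0.933. The sample channel count of 393 was 156 with 75th percentile scaling (132 lower and 24 higher, where the median of all genes moved to -0.12), 181 without both arrays that stand apart and 74 with the replicate block, and leaving out 1 array gave 187 (knockout replicate 2) to 464 (either Cdx2 array, which leaves the spread to the 7 arrays), below 393 by over 1.5 times without wild type replicate 2 or 4 or any 1 knockout array. The replicate numbers do not pair the samples: deviations of same-numbered arrays correlated at -0.061, 0.049 and 0.183. The Trp63 ratio passed without background correction (-1.26), with the processed signals (-1.42) and with the authors' table (-1.42), and ran from -1.08 to -0.83 when 1 array was left out, passing without wild type replicate 3. In the sample channel Trp63 no longer passed with the mean of its kept probes (-0.40) or the replicate block (-1.13), and ran from -1.32 to -1.08 when 1 array was left out, lost without knockout replicate 2. Of 45 named ratio calls 15 held in all 9 fits that left out 1 array, and of 94 named sample channel calls 53 did. Under all alternatives run 4 and 32 held. No reported call changed direction. The causes were not tested. Probes near background limit the folds of fallen genes, and slide and genotype cannot be told apart.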
